A study of Rattus norvegicus with 6 samples.

Results

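The serine proteases, proprotein convertases and serpins on the array were followed in cultures of UMR106-01, a rat osteosarcoma line with osteoblast properties, given the serine protease inhibitor AEBSF. Members were the probe sets whose platform annotation gave exactly 1 gene symbol in the families Serpin, Prss, Tmprss, Htra, Pcsk, Plau, Klk, Spint, Masp and Lonp, or the symbol Plat, St14, Hpn, F2, F7, F10, C1r, C1s, Dpp4, Dpp7, Dpp8, Dpp9, Fap or Prep. The collagen chaperone Serpinh1 was left out. The rule found 122 of 31099 probe sets, which stand for 99 of the 14217 genes named on the array. It used no measured value, but was chosen with earlier results of these data known.

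The AEBSF group was 3 cultures that received 400 µM AEBSF with 6.5 mM beta-glycerol phosphate, and the mineralizing group was 3 cultures that received the beta-glycerol phosphate alone. Cells of both were plated at a density of 100000 per cm2, with fetal bovine serum at 10%, were re-fed with these agents at 64 h and were collected at 76 h, so that AEBSF was present for 12 h. Every culture was of the same osteosarcoma-derived line, was held in serum, a source of plasma protease inhibitors, and gave 1 Affymetrix rat array. The values are MAS5 signals, linear intensities that combine the probes of a probe set and were scaled to a common level on each array, with a mean after trimming 2% at each end of 500.15 or 500.16 on all 6 arrays. A change is therefore relative to the other probe sets of an array. In total RNA from whole cultures, fewer cells that express a gene and less of its RNA per cell cannot be told apart.

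Serine proteases cut peptide bonds with an active-site serine, which AEBSF modifies covalently and so blocks. Serpins are their suicide inhibitors: the protease cuts a loop of the serpin and is trapped in a complex, which cells clear through receptors of the LDL receptor family. Proprotein convertases are serine proteases of the secretory pathway that activate growth factors, hormones and matrix enzymes, and in bone plasmin and its activators take part in matrix turnover. AEBSF acts on the proteins, whereas the array reads the transcripts that encode them.

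Osteoblast markers were present in these cultures. Of 8 measured osteoblast markers 7 lay above the signal filter described below, and Bglap, which encodes osteocalcin, lay below it with means of 4.80 with AEBSF and 1.95 in mineralizing cultures. Of the 7 tested, each by its brightest probe set, 3 (42.9%) were called by limma at an adjusted p of 0.05, against 16.3% of all 9864 tested genes. All 3 were lower with AEBSF: the type I collagen chains Col1a2 (log2 fold change -1.13, limma adjusted p = 1.27e-05) and Col1a1 (-0.67, 0.00116), and the phosphate-regulating peptidase Phex (-0.73, 3.36e-05). Alpl, Ibsp, Spp1 and Pth1r did not pass. The summed signal of the 8 markers ranged over 25374 to 26296 with AEBSF and 27909 to 29255 in mineralizing cultures. Ibsp made up most of this sum and was not lower, with means of 17101 with AEBSF and 16520 in mineralizing cultures. The means were 1534 and 3334 for Col1a2, and 1645 and 2725 for Phex. Runx2 and Sp7 were on the marker list but were not measured. The part of the osteoblast markers in the members' results was not tested. Of 22 measured markers of macrophages and osteoclasts, endothelium, hepatocytes, mast cells and epithelium, 17 lay below the filter, 5 were tested and limma called 0 of these, none with an unadjusted p under 0.05. The brightest of the 5 was the mast cell marker Kit, at 347 to 438 with AEBSF and 388 to 465 in mineralizing cultures. The summed signal of the 22 markers ranged over 1148 to 1229 with AEBSF and 1228 to 1327 in mineralizing cultures. None of these markers was listed at 0.

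Most members were dim. A probe set was tested when its mean log2 signal over all 6 arrays exceeded the 40th percentile, a signal of 67.2, which 32 of 122 members (26.2%) did, standing for 26 genes. The filter kept 60% of all probe sets by its construction. The 90 members below it had mean signals of 1.899 to 64.9, with a median of 18.7, and the brightest single value among them was 107.6. All 36 probe sets of the trypsin-like Prss and kallikrein genes and 27 of 36 serpin probe sets were in this range. So were 4 of 5 probe sets of the plasminogen activators Plat and Plau and the receptor Plaur.

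**Figure D1:**
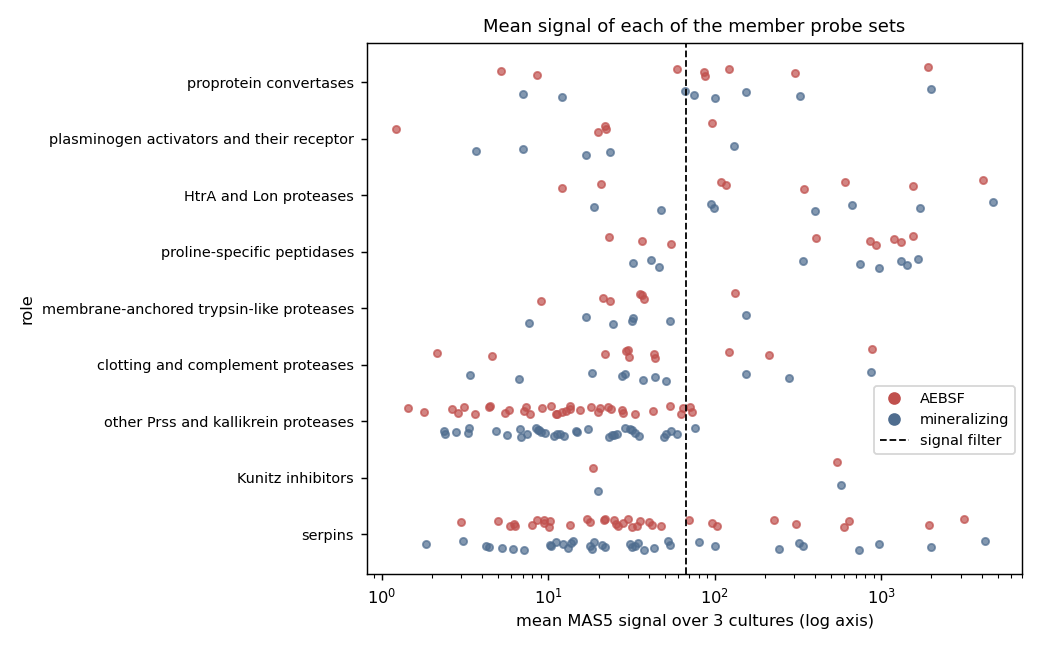
Mean MAS5 signal of each of the 122 member probe sets by role, on a log axis, with AEBSF means above mineralizing means and a dashed line at the signal filter of 67.2. The filter used the mean log2 signal of all 6 arrays, so a few dots lie on the other side of the line, and 90 members were not tested.

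With AEBSF, 3 serpin genes fell and no member rose. Limma called 5 of 32 tested members (15.6%) at an adjusted p of 0.05, against 13.4% of all 18625 tested probe sets. The 5 were 2 probe sets of Serpini1, 2 of Serpinb9 and 1 of Serpine2, and none of the 22 tested probe sets of proteases and of the receptor Plaur passed, 3 of them with an unadjusted p under 0.05. Counted by gene, each by its brightest probe set, 3 of 26 tested member genes were called, a smaller share than the 16.3% of all 9864 tested genes. The shares that follow count probe sets, so Serpini1 and Serpinb9 enter them with 2 probe sets each. Falls made up 15.6% of tested members and 7.41% of all tested probe sets. The median log2 fold change (AEBSF minus mineralizing) was -0.138 over tested members and 0.012 over all tested probe sets, with 26 of 32 members (81.2%) and 47.9% of all probe sets below 0. All AEBSF values lay below all mineralizing values in 8 of 32 tested members, against 16.5% of all tested probe sets. They lay above them in 1 of 32 tested members, against 16.2% of all tested probe sets. The count of members called was 3 (9.38%) without mineralizing culture 1 and also 3 without mineralizing culture 2, where 3.83% and 3.94% of all tested probe sets were called lower. With scaling to hybridization controls the shares called lower were 21.9% of members and 13.2% of all, and with no signal filter 3.28% of all 122 members and 3.29% of all probe sets.

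Serpine2, which encodes protease nexin-1, a secreted inhibitor of thrombin and of the plasminogen activators, had signals of 3159, 3141 and 3067 with AEBSF, against 4165, 4275 and 4156 in mineralizing cultures. All AEBSF values lay below all mineralizing values, and the spread within each group was small. The fall was 1.34-fold (log2 fold change -0.43 ± 0.05 SE, adjusted p = 0.000424), and its adjusted p ranged from 6.12e-05 to 0.0231 over 16 alternative settings.

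Serpinb9, whose human and mouse products inhibit granzyme B inside cells, was measured by 2 probe sets. The first gave 624, 638 and 666 with AEBSF, against 948, 934 and 1026 in mineralizing cultures, a 1.51-fold fall (log2 fold change -0.59 ± 0.07 SE, adjusted p = 0.000594). In the second, the signals were 575, 640 and 581 with AEBSF, against 728, 784 and 692 in mineralizing cultures (log2 fold change -0.30 ± 0.08 SE, adjusted p = 0.0366). The groups did not overlap in either probe set. The second call was the less stable: it was lost without AEBSF culture 1 or 3 (adjusted p = 0.0988 and 0.0742), likewise when mineralizing culture 1, 2 or 3 was left out (0.101, 0.146 and 0.0536), with all probe sets tested (0.0563) and with 1 variance prior for all signals (0.0891). The first was kept in all 16 alternatives.

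Serpini1 encodes neuroserpin, an inhibitor of tissue plasminogen activator known mainly from neurons, and held the largest fall among tested members. One probe set gave 111, 87.4 and 111 with AEBSF, against 232, 249 and 250.2 in mineralizing cultures (2.37-fold lower; log2 fold change -1.25 ± 0.16 SE, adjusted p = 0.000763). The other gave 220.2, 235 and 228 with AEBSF, against 319, 329 and 306 in mineralizing cultures (1.40-fold lower; log2 fold change -0.48 ± 0.11 SE, adjusted p = 0.0174). Both probe sets separated the groups, and their 95% intervals, -1.60 to -0.89 and -0.73 to -0.24, did not meet. Which transcript forms each probe set reads is not given in the sources used here, and the difference between them was not tested. The smaller change lost its call without mineralizing culture 1 or 2 (limma adjusted p = 0.0638 and 0.0735), and the larger passed in all 15 alternatives in which it was tested, being too dim for a filter at the 60th percentile.

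**Figure D2:**
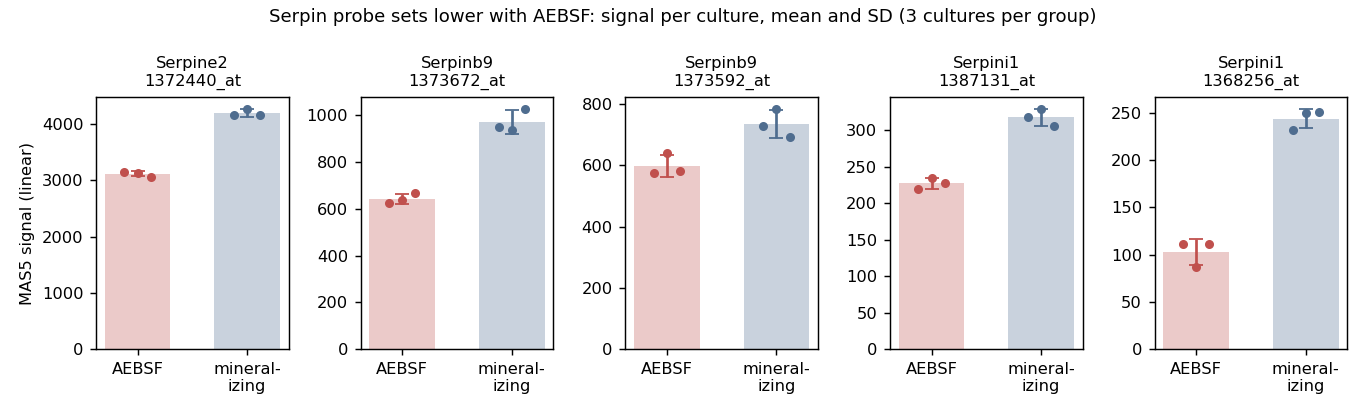
MAS5 signal per culture (points), mean (bars) and SD (error bars, n = 3) of the 5 serpin probe sets that passed, on linear axes from 0, each with AEBSF left of mineralizing. In each panel all 3 AEBSF cultures lie below all 3 mineralizing cultures, with mean signals for Serpine2 of 3123 with AEBSF and 4198 in mineralizing cultures.

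The proteases named above as targets of these 3 serpins were dim in both groups, and other targets were not followed here. Plat, tissue plasminogen activator, stood at 30.2, 23.5 and 12.4 with AEBSF and 21.2, 27.2 and 21.7 in mineralizing cultures. Plau, urokinase, had 2 probe sets with values of 3.94 to 40.01 with AEBSF and 1.82 to 43.7 in mineralizing cultures, and F2, prothrombin, stood at 25.2 to 33.96 with AEBSF and 25.1 to 33.0 in mineralizing cultures. Gzmb, granzyme B, which is no member, stood at 37.7 to 64.5 with AEBSF and 10.8 to 33.6 in mineralizing cultures. All lay below the filter and were not tested.

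The upstream sequence of the 3 genes that fell is shown because they moved the same way. These are the 250 bases before 1 annotated start per gene in RefSeq build GRCr8, 5′ to 3′ on the gene's strand, with matches to any motif searched in capitals. The annotated gene reaches 50 bases further upstream of that start for Serpine2, 153 for Serpini1 and 11187 for Serpinb9, so other starts were not searched.
Serpine2, chr9:88637203-88637452 (minus strand): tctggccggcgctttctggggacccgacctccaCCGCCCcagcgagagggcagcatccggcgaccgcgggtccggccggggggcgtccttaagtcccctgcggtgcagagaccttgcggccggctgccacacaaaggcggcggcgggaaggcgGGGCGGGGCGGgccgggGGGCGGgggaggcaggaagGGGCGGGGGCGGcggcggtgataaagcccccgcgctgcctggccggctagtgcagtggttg
Serpinb9, chr17:31640817-31641066 (minus strand): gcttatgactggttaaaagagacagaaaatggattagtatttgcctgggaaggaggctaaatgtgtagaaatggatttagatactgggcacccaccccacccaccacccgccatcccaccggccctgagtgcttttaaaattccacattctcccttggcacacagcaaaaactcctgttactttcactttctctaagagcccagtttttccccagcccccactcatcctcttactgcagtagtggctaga
Serpini1, chr2:162645112-162645361 (plus strand): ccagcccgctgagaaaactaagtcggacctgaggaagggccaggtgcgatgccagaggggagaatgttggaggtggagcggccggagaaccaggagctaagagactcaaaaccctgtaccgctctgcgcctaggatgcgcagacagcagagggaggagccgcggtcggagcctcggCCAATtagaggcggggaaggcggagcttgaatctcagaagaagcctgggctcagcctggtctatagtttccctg
Of the 26 tested member genes, 22 had a sequence in the RefSeq table. The motifs, searched on both strands and allowed to overlap, were the CCAAT box, the CCACG part of the ER stress response element, the whole element (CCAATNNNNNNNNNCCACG), the CRE core TGACGT, the E-box CACGTG, the GC box GGGCGG and the TATA box TATAAA. Serpine2 held 6 GC boxes, 5 on its own strand between 97 and 50 bases before the start and 1 on the other strand, in a window of 76.8% G and C. GC boxes were found in 32.4% of 27457 promoter windows of that length and in 10 of the 22. Serpini1 held 1 CCAAT, 74 to 70 bases before the start, a motif found in 34.3% of windows and in 7 of the 22. Serpinb9, with 48% G and C, held no match. No motif was shared by the 3 windows, and the ER stress response element, present in 0.0765% of all windows, the CRE core (7.25%), the E-box (5.79%), CCACG (28%) and the TATA box (13.1%) were in none of them. A match is a string of letters and was not tested for binding.

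Among the other serpins, 4 were tested and did not pass, and all 9 tested serpin probe sets had a log2 fold change below 0, with a median of -0.30. Serpinb6a, an intracellular serpin, stood at 1968, 1903 and 1912 with AEBSF, against 1954, 1968 and 2059 in mineralizing cultures. The groups overlapped, and the 95% interval of its log2 fold change ran over -0.17 to 0.07. Serpinf1 encodes PEDF, a secreted serpin without inhibitory activity whose loss in humans causes a form of osteogenesis imperfecta, and had signals of 328, 288 and 300.5 with AEBSF and 349, 302 and 365 in mineralizing cultures (log2 fold change -0.15, limma adjusted p = 0.449). Serpina4, kallistatin, and Serpine3 were near the filter with log2 fold changes of -0.13 and -0.22 (SE 0.29 and 0.27). Serpina1, the inhibitor of neutrophil elastase, and Serpinb1a had the highest mean signals of the serpin genes below the filter, at 35.6 to 59.2 with AEBSF and 30.3 to 56.7 in mineralizing cultures for Serpina1, and 9.15 to 64.9 with AEBSF and 39.3 to 70.5 in mineralizing cultures for the brighter Serpinb1a probe set. Of the Kunitz inhibitors of membrane-bound proteases, Spint2 stood at 540, 608 and 487 with AEBSF and 654, 523 and 536 in mineralizing cultures (limma adjusted p = 0.742), and Spint1 was below the filter, with means of 18.6 with AEBSF and 19.8 in mineralizing cultures.

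None of 5 tested convertase probe sets, standing for 4 genes, passed, 0 of them with an unadjusted p under 0.05, and their median log2 fold change was -0.11. Pcsk6, which activates precursors of the TGF-beta family, stood at 1945, 2028 and 1775 with AEBSF, against 2051, 1919 and 1993 in mineralizing cultures. The groups overlapped, and the log2 fold change of -0.05 had a 95% interval of -0.19 to 0.09. Pcsk7 gave 275, 335 and 293 with AEBSF and 345, 324 and 304 in mineralizing cultures (interval -0.37 to 0.14). The 2 tested probe sets of Pcsk5, an enzyme of similar substrates, had values of opposite sign, -0.38 and 0.18 (SE 0.22 and 0.25), and the remaining probe set of Pcsk5 was below the filter. Pcsk1n, the precursor of an inhibitor of a neuroendocrine convertase, and Pcsk2, a neuroendocrine convertase, were below the filter the first at 29.8 to 74.7 with AEBSF and 60.1 to 76.4 in mineralizing cultures, the second at 6.03 to 12.2 with AEBSF and 7.64 to 20.7 in mineralizing cultures.

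Of the member genes Plat, Plau and Plaur, only Plaur, the urokinase receptor, was bright enough to test. Its signals were 88.9, 103 and 94.8 with AEBSF, against 146, 142 and 101 in mineralizing cultures. Mineralizing culture 3 lay inside the AEBSF range, and the log2 fold change of -0.42 (95% interval -0.87 to 0.03) did not pass (limma adjusted p = 0.203).

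The HtrA and Lon proteases, which degrade damaged proteins in mitochondria, in peroxisomes or outside the cell, gave 0 calls among 6 tested probe sets, 1 of them with an unadjusted p under 0.05. Lonp1, an ATP-dependent protease of the mitochondrial matrix, had that p, with signals of 4372, 3922 and 3966 with AEBSF, against 4734, 4410 and 4838 in mineralizing cultures. The groups did not overlap, but the log2 fold change of -0.19 (SE 0.06) missed the threshold (limma adjusted p = 0.0575). It passed without AEBSF culture 1 (0.0374), under quantile normalization (0.0229), under a filter at the 60th percentile (0.0421) and when scaled to the hybridization controls (0.0155). A second Lonp1 probe set was below the filter, at 4.08 to 26.2 with AEBSF and 36.1 to 54.7 in mineralizing cultures. Htra2, a mitochondrial protease released in apoptosis, stood at 1475, 1703 and 1472 with AEBSF, against 1704, 1723 and 1667 in mineralizing cultures (log2 fold change -0.13, interval -0.28 to 0.01), and Lonp2, the peroxisomal form, had a log2 fold change of -0.14 (SE 0.09). Htra1, a secreted member, gave 351, 334 and 343 with AEBSF, against 440.3, 394 and 356 in mineralizing cultures; the groups did not overlap, and the log2 fold change of -0.21 (SE 0.11) did not pass (limma adjusted p = 0.231). The 2 tested probe sets of Htra3 had values above 0, 0.41 and 0.18, with SE of 0.36 and 0.22; in the first of them mineralizing culture 2, at 42.0, lay far below the other two, at 133 and 121.

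Peptidases that cut after proline gave 0 calls among 6 tested probe sets, and 1 had an unadjusted p under 0.05. Prep, the cytosolic prolyl oligopeptidase, was the single tested member whose AEBSF values, 883, 814 and 869, all lay above the mineralizing values, 755, 774 and 716. Its log2 fold change of 0.19 (SE 0.07) did not pass (limma adjusted p = 0.104). The 3 probe sets of Dpp8, a cytosolic dipeptidyl peptidase, had log2 fold changes of -0.11, -0.13 and -0.05, and Dpp7, its counterpart in lysosomes, stood at 1401, 1252 and 1259 with AEBSF, against 1343, 1391 and 1546 in mineralizing cultures (-0.13, interval -0.29 to 0.03). The membrane peptidases Fap and Dpp4 were below the filter, Fap at 43.9 to 75.0 with AEBSF and 39.4 to 59.1 in mineralizing cultures.

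Among complement, clotting and membrane-anchored proteases 4 probe sets were tested and 0 passed, 1 with an unadjusted p under 0.05. C1r, which starts the classical complement pathway, had signals of 247, 201 and 187 with AEBSF, against 297, 281 and 263 in mineralizing cultures. The groups did not overlap (log2 fold change -0.41 ± 0.14 SE, adjusted p = 0.0697), and C1r passed without AEBSF culture 1 (0.0428), under a filter at the 60th percentile (0.0495) and under hybridization control scaling (0.0264). C1s, the protease that C1r activates, was below the filter, at 33.7 to 49.99 with AEBSF and 36.1 to 49.7 in mineralizing cultures. Of the lectin pathway proteases, Masp2 stood at 806, 1061 and 764 with AEBSF and 801, 790.5 and 992 in mineralizing cultures on 1 probe set (log2 fold change 0.02 ± 0.12 SE) while its other 2 probe sets were below the filter, and Masp1 had a log2 fold change of -0.31 (SE 0.22). St14, matriptase, gave 122, 127 and 149 with AEBSF and 161, 134 and 163 in mineralizing cultures (limma adjusted p = 0.474), and the related Hpn (hepsin) and Tmprss2 were below the filter, Hpn at 7.55 to 56.8 with AEBSF and 44.7 to 64.8 in mineralizing cultures. Also below it were all 32 genes of the remaining Prss and kallikrein proteases, of which Prss32, at 37.5 to 69.1 with AEBSF and 70.3 to 85.6 in mineralizing cultures, and Prss56, at 52.4 to 94.6 with AEBSF and 46.0 to 56.2 in mineralizing cultures, had the highest mean signals.

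**Figure D3:**
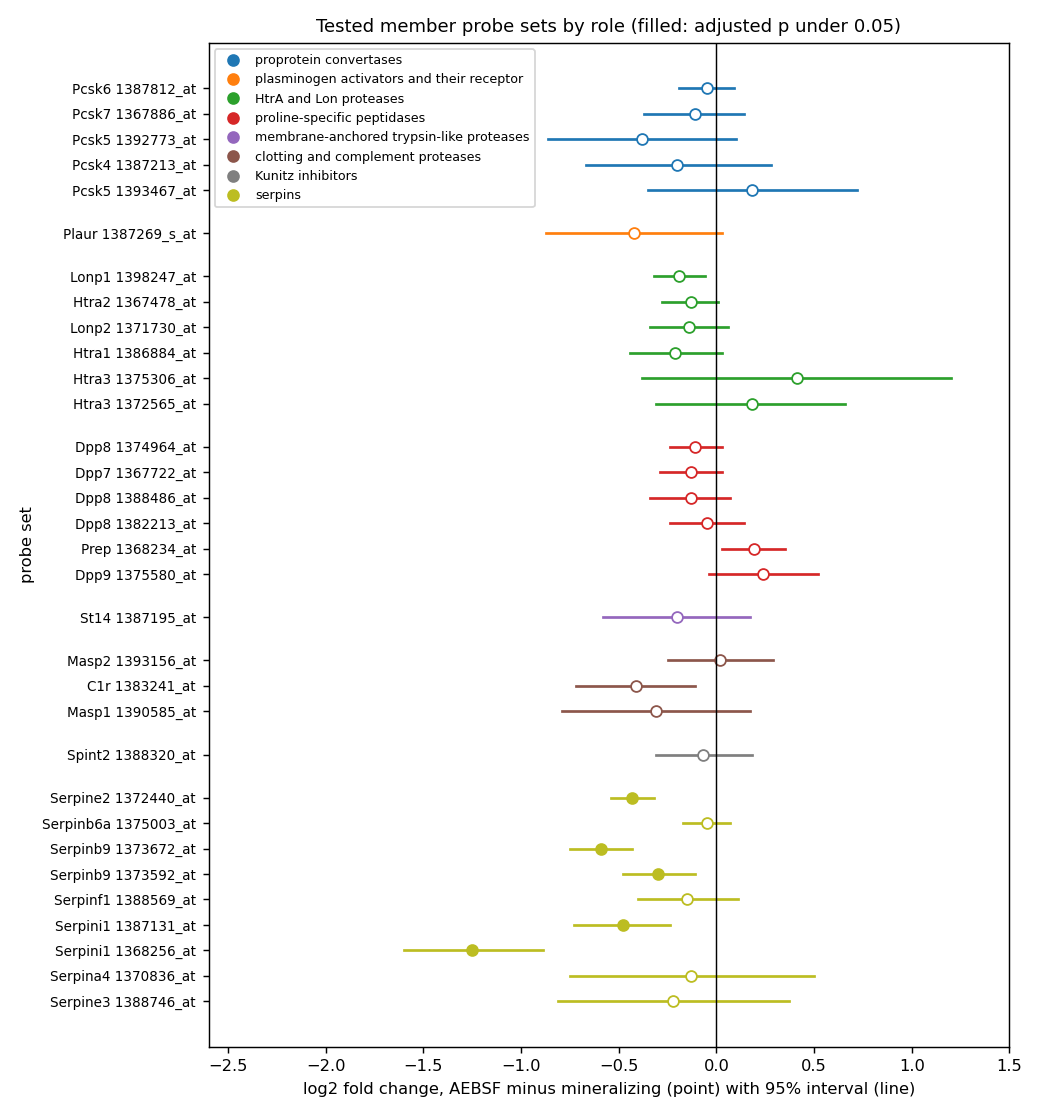
Log2 fold change, AEBSF minus mineralizing, of the 32 tested member probe sets by role, with 95% intervals from limma; filled points passed an adjusted p of 0.05. The filled points are all serpins, from -1.25 to -0.30, and intervals are wider for dim probe sets, with a median SE of 0.22 for the 11 with a mean signal under 200 and 0.06 for the 8 over 1000.

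Other genes of the same systems that the rule does not take were listed by function: 81 serine peptidases, inhibitors, receptors and cofactors, of which 67 were measured and 37 tested, each by its brightest probe set. Limma called 10 of them (27%), 8 lower and 2 higher, against 16.3% of all 9864 tested genes, and their median log2 fold change was -0.13. Without Reck, whose known targets are metalloproteases, 9 of 36 (25%) were called. The list was drawn up with earlier results of these data known, so its share beside that of all genes is a description. Lrp1, the endocytic receptor that clears serpin-protease complexes, gave 825, 646 and 700.1 with AEBSF, against 1476, 1252 and 1288 in mineralizing cultures, with no overlap (1.85-fold lower; log2 fold change -0.89 ± 0.10 SE, adjusted p = 0.000261). Lrp8, another member of the LDL receptor family, rose 1.54-fold, with 602, 652 and 671 with AEBSF, against 466, 431 and 360.0 in mineralizing cultures (limma adjusted p = 0.00348). A pair of receptors of the clotting system was called lower. F3, tissue factor, had 352, 281 and 323 with AEBSF, against 477, 442 and 483 in mineralizing cultures (log2 fold change -0.56, limma adjusted p = 0.00738). Thbd, thrombomodulin, was dim, with 45.1, 66.9 and 76.2 with AEBSF, against 131, 90.8 and 127 in mineralizing cultures (log2 fold change -0.91). Its AEBSF mean of 62.7 lay below the filter signal of 67.2, so the size of this fall is uncertain. The Thbd call (limma adjusted p = 0.0406) was lost without AEBSF culture 1 or 2 (0.118 and 0.0583), or mineralizing culture 1 or 3 (0.147 and 0.128), with all probe sets tested (0.104) and with 1 variance prior for all signals (0.076).

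Of the inhibitors on that list, App, the amyloid precursor, some forms of which carry a Kunitz domain, fell with signals of 4529, 5044 and 4516 with AEBSF, against 6491, 6461 and 6799 in mineralizing cultures (1.40-fold; limma adjusted p = 0.000459), and Reck, a membrane-anchored inhibitor known for its action on metalloproteases, fell 1.37-fold (limma adjusted p = 0.00786; 0.0614 with a constant variance prior). Both groups of values were separate for App and for Reck. Of its 19 tested serine peptidases, Clpp, of the mitochondrial matrix, rose 1.29-fold, with 1799, 1876 and 1828 with AEBSF, against 1369, 1432 and 1452 in mineralizing cultures (limma adjusted p = 0.00199), a call lost with hybridization control scaling (0.125). Sec11c, a catalytic subunit of the signal peptidase, fell 1.21-fold (limma adjusted p = 0.0121; 0.0774 with a constant variance prior). The remaining calls were falls of the lysosomal carboxypeptidase Ctsa (log2 fold change -0.25) and the intramembrane protease Rhbdd1 (-0.24), named here after their values were seen. Mbtps1, site-1 protease, had signals of 1958, 1925 and 1728 with AEBSF, against 2017, 1778 and 1869 in mineralizing cultures, with an interval of -0.16 to 0.14. Furin, the widely expressed convertase, gave 228, 256 and 180.4 with AEBSF and 191, 195 and 152 in mineralizing cultures (interval -0.07 to 0.67), and F2r, the thrombin receptor, gave 1528, 1511 and 1632 with AEBSF and 1609, 1741 and 1747 in mineralizing cultures (interval -0.26 to 0.01). In these last 3 genes the groups overlapped and none passed.

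**Figure D4:**
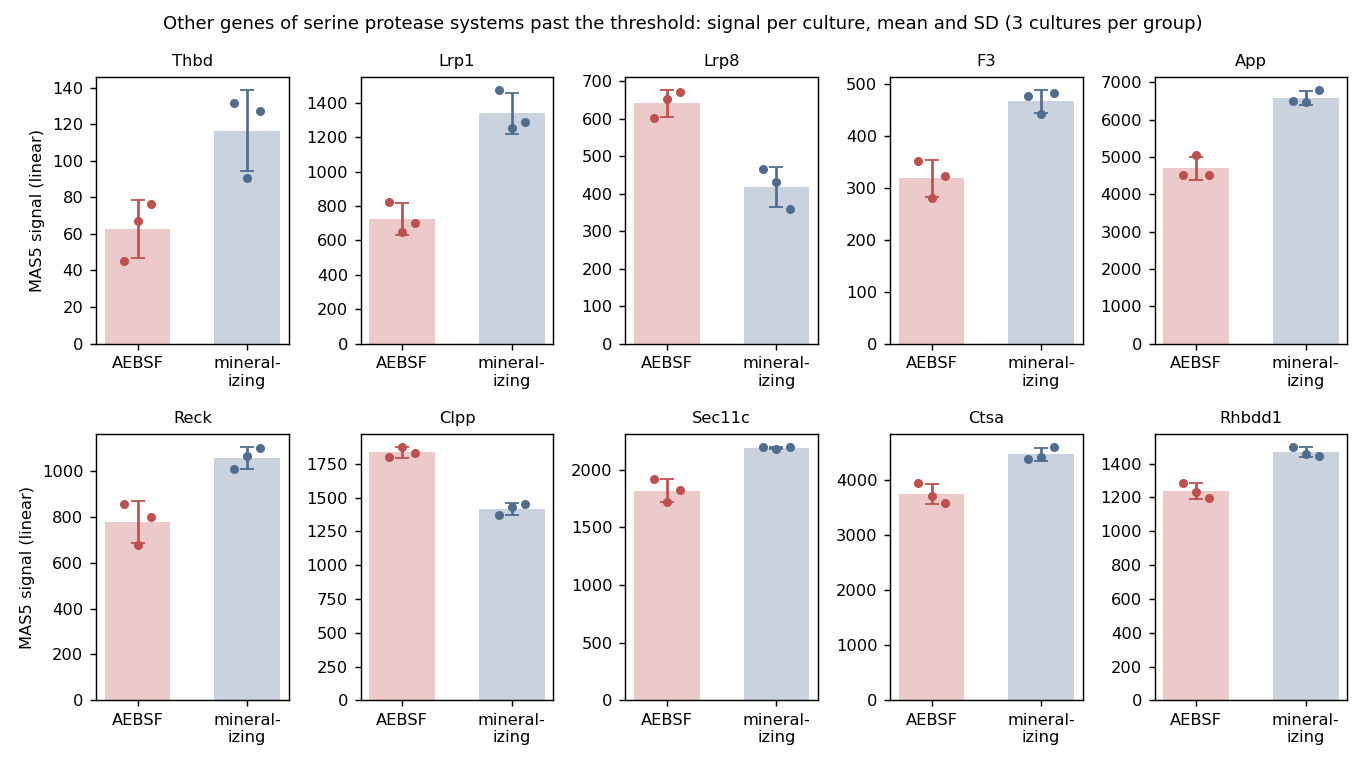
MAS5 signal per culture (points), mean (bars) and SD (error bars, n = 3) of the 10 genes on the functional list that passed, on linear axes from 0, each with AEBSF left of mineralizing. Lrp8 and Clpp are the 2 panels with AEBSF above, and in all 10 the groups do not overlap.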

How the data were processed

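Per the submitters' processing notes, the authors deposited MAS5 signals made in GCOS, linear intensities, 1 per probe set and array; for tool versions, the scaling target and detection calls nothing is given in the sources used here. All 6 columns were used, and at most 2 of 31099 values were equal in any pair of arrays. From these, log2 signals were computed with no added constant and fitted in R 4.3.3 with limma 3.58.1 (variance prior following the mean signal), AEBSF minus mineralizing. The 57 control probe sets were left out, 18625 probe sets above the 40th percentile were tested, and p-values were adjusted over them by Benjamini-Hochberg at a threshold of 0.05. The fit was tested on simulated data. Tables and plots used Python 3.11.15. Groups and replicate numbers came from the sample titles, and the design text calls the samples triplicate cultures; 3 arrays per group limit the precision.

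Members were matched on platform symbols; 121 of 122 had an Entrez identifier in RefSeq GRCr8, no symbol changed, and no array coordinates are given. Named are all called members, per role up to 3 further tested and 2 untested genes by signal, and of the functional list up to 8 called genes by size with Mbtps1, Furin and F2r; Htra1, Htra3 and Serpine3 lie outside this rule and were added after their values were seen, as were the called osteoblast markers. The members and lists were chosen with earlier results of these data known. Promoter sequences are from RefSeq, build GRCr8. Alternatives were 16 or 64 added to the signal, 3 other scalings, 2 other filters, 2 other variance priors, the replicate number as a block and leaving out each array.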

Additional observations from a re-analysis of the deposited data

How the results depend on the processing

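Member probe sets called numbered 3 to 6 when 1 culture was left out, in place of the main count of 5. When each gene was counted once by its brightest probe set, 3 of 26 tested member genes were called, a smaller share than the 16.3% of all 9864 tested genes. Every member called in any of the 16 alternative fits was lower with AEBSF. All tested probe sets called numbered 1203 to 2257 without 1 culture and 885 with a constant variance prior, against 2495, and the genes of the functional list 8 to 10 and 5, against 10. With scaling to hybridization controls the median log2 fold change was -0.135 over all tested probe sets, in place of 0.012, and -0.284 over tested members, in place of -0.138. Under it the calls were 119 higher and 2457 lower over all probe sets (1115 and 1380 in the values as deposited), 0 and 7 among members, and 1 and 14 on the functional list (2 and 8). With the replicate number as a block, 4 members, 1802 probe sets and 9 genes of the list were called; Serpinb9's second probe set and Thbd missed (limma adjusted p = 0.0511 and 0.0655). Deviations of same-numbered arrays from their group means correlated at 0.0109, -0.119 and -0.0359, and those of differently numbered arrays at -0.0596 to 0.0895. With means of only 3 arrays, these values cannot decide whether same-numbered cultures were handled together. No named log2 fold change turned its sign where it was called in either fit. The 90 members below the signal filter have no test.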

Other observations

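Of the 12 protein-coding genes within 2 places on either side of the 3 serpin genes that fell, in RefSeq GRCr8, 8 were measured and 5 were tested, by 9 probe sets, with log2 fold changes of -0.12 to 0.11; limma called 0, against 13.4% of all tested probe sets, and 0 had an unadjusted p under 0.05. The tested neighbours were 3 genes beside Serpine2 and 2 beside Serpini1; beside Serpinb9 none was tested. This comparison was chosen after the values were seen.

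Pdcd10, a gene mutated in familial cerebral cavernous malformations in humans, lies next to Serpini1 on the opposite strand and points away from it. Its signals were 4110, 3740 and 4116 with AEBSF, against 3620, 3843 and 3830 in mineralizing cultures. The groups overlapped (log2 fold change 0.08, SE 0.06, limma adjusted p = 0.378), whereas both Serpini1 probe sets were lower with AEBSF. The difference between the neighbours was not tested.

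Serpinb9 lies in a cluster of clade B serpin genes. Its measured neighbours Serpinb9b, Serpinb6b and Serpinb1a were below the signal filter in these cultures, Serpinb9b at 16.2 to 30.9 with AEBSF and 7.53 to 26.0 in mineralizing cultures.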
